A study of Mus musculus with 4 samples.

Results

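The 10 iron handling genes described here were Hamp, Hamp2, Tfr2, Tfrc, Trf, Hfe, Fth1, Slc40a1, Tmprss6 and Cp, out of 21911 protein-coding genes of the GENCODE vM21 annotation. They were chosen by name. For each gene, the counts in called peaks over the gene body and the 2000 bp upstream of it were summed in each library. The data were 4 scATAC-Seq libraries, in which the Tn5 transposase cuts open chromatin of single nuclei and a droplet barcode marks the nucleus. The nuclei came from liver hepatocytes of adult male C57BL/6J mice, 10 to 12 weeks old and on normal diet, that were collected by collagenase perfusion. One library came from undamaged liver (PHx 0 h), and 1 each from liver regrowing for 48, 72 or 96 h since some of its lobes had been cut away, an operation called partial hepatectomy (PHx). All groups shared the strain, the diet and the perfusion. The 48 h library came from 1 mouse, and the number of mice behind the 72 and 96 h libraries was not found in the sources. The comparison of each later library with 0 h asks how accessibility at these genes differed while the liver regrew.

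Iron enters the blood through ferroportin, the only known iron exporter of mammalian cells, and hepcidin, a peptide hormone secreted by hepatocytes, removes ferroportin from the cell surface. Hepatocytes read the iron load through bone morphogenetic protein (BMP) signalling and a sensing complex at their surface, and set hepcidin transcription from it, while interleukin 6 raises hepcidin through STAT3. The liver also makes the iron carrier and the ferroxidase of plasma and stores iron in ferritin, and Kupffer cells, its resident macrophages, recycle iron from old red blood cells.

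The libraries stood apart in depth and in peak length, and both bear on every value that follows. Total counts in peaks ranged from 15809769 at 96 h up to 136949314 at 0 h. Barcodes with at least 1000 counts, called nuclei here, numbered 3977, 3892, 4256 and 3224 at 0, 48, 72 and 96 h, with medians between 3682 counts at 96 h and 26005 counts at 0 h. Peaks were called in each library on its own and covered 153.6, 179.0, 141.2 and 60.9 Mb. Levels are given in CPM, counts per 1000000 counts of a library in peaks, and, since a longer peak collects more counts, with the covered peak length or as CPM per kb. Over all peaks the libraries held 6.51, 5.59, 7.08 and 16.4 CPM per kb. Between 681 and 882 barcodes were shared by any 2 libraries, but only 27 to 60 of them reached 1000 counts in both, and the counts of members past 2-fold without the shared barcodes are given in the closing section. All 10 hepatocyte markers had counts in each library, at a summed 3440 to 5026 CPM, beside 251 to 534 CPM for 10 endothelial markers and 110 to 240 CPM for 10 Kupffer and other myeloid markers, of which between 2 and 6, Cd5l and Vsig4 among them, had no peak in a library. With 1 library per time point there was no test and no p-value, and time and library cannot be told apart. Intervals are exact 95% Poisson intervals on counts divided by 2, since most fragments count at both ends, and cover counting error only. Past 2-fold is a rule of size and not a test.

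Hamp, at chr7:30942368-30944032 on the minus strand (GRCm38), encodes hepcidin, and Hamp2, at chr7:30922372-30924681 on the same strand, is its near copy. Their promoters are shown because the pair is alike in sequence and differed in level. The RefSeq promoter table (GRCm38.p6) matched 7 of the 10 members, with 12 starts, and Trf, Slc40a1 and Tmprss6 were not matched. The 250 bases before the start are printed 5′ to 3′ on the strand of the gene, with matches to the motifs searched in capitals. The Hamp bases lie at chr7:30944030-30944279 and those of Hamp2 at chr7:30924182-30924431, both on the minus strand.
Hamp: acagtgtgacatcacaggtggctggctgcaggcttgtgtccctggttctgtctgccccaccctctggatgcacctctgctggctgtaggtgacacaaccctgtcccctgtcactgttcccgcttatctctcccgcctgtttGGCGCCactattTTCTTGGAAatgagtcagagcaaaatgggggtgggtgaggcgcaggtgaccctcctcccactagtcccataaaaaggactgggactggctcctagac
Hamp2: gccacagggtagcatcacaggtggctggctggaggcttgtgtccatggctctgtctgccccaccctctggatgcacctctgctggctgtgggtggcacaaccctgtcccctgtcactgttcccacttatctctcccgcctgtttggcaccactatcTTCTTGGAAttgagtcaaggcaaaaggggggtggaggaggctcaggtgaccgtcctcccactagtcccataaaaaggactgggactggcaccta

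Of the aligned bases of the pair, 227 of 247 (91.9%) were identical. The hexamer GGCGCC, the core of a BMP response element, began 109 bases before the start of Hamp, and the STAT pattern TTCNNNGAA began 97 bases before it. In Hamp2 the STAT pattern began 94 bases before the start, and the aligned hexamer differed by the substitution G4A, counted from 1 at its 5′ end with the base of Hamp first. Both strands of all windows from 250 bases before to 50 after a start were searched for 5 motifs, and no matches in the members overlapped each other. GGCGCC was held by 11.9% of 32817 promoter windows and TTCNNNGAA by 8.29%. Among the other members GGCGCC was found in 1 of the 2 windows of Tfrc, beginning 89 bases before that start. The C/EBP pattern TTGCNNAA, held by 10.8% of windows, was found in Fth1 and Cp, and the antioxidant response pattern TGACNNNGC, held by 12.4%, in Hfe. CACGTG, the E-box of the factor USF, was held by 7.15% of windows and by none of these members. A match is a description of the letters, not a bound site.

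Hamp held 29.9 CPM at 0 h, 56.4 CPM at 48 h, 21.2 CPM at 72 h and 35.4 CPM at 96 h, over 5279, 7028, 4197 and 3256 bp of peaks. By CPM in this window its level was thus highest at 48 h and lowest at 72 h. The counting intervals of these 2 libraries (53.8 to 59.1 and 18.7 to 24.0 CPM) lay apart from those of the others. Per kb Hamp held 5.67, 8.02, 5.06 and 10.9 CPM, highest at 96 h. With 10000 bp upstream 96 h was the lowest library, as the ratios in the closing section show. Its log2 ratios to 0 h were, in the order of time, 0.90 (0.82 to 1.01), -0.49 (-0.69 to -0.31) and 0.24 (0.05 to 0.43), none of them past 2-fold. Between 48 and 72 h the log2 difference was -1.39 (-1.60 to -1.22), 2.62-fold lower. At 96 h the direction depends on the window and the scaling. The ratio was -0.04 at the promoter and over the gene body alone and -2.26 with 10000 bp upstream, and with libraries scaled on regions of near-equal peak length it was -0.44, where the median of all genes was -0.59. At 72 and 96 h the open stretch of Hamp was split into separate peaks, of which 1 of nearly the same length in both covered the 3′ part of the gene and ran past its end. That peak held 7.60 CPM over 1872 bp at 72 h and 20.6 CPM over 1951 bp at 96 h. The peak at the start of Hamp held 13.6 CPM over 2325 bp at 72 h and 8.50 CPM over 829 bp at 96 h, so the start held more counts than the 3′ peak at 72 h and fewer at 96 h. The window of Hamp overlaps that of Usf2, and counts there cannot be assigned to 1 of these genes. Hamp2 held 3.30, 3.53 and 2.83 CPM at 0, 48 and 72 h, and no peak was called over it at 96 h. Its mean was under the minimum of 5 CPM set for a ratio, so none is given. How reads that match both copies were placed was not found in the sources, so the split between Hamp and Hamp2 is uncertain.

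**Figure D1:**
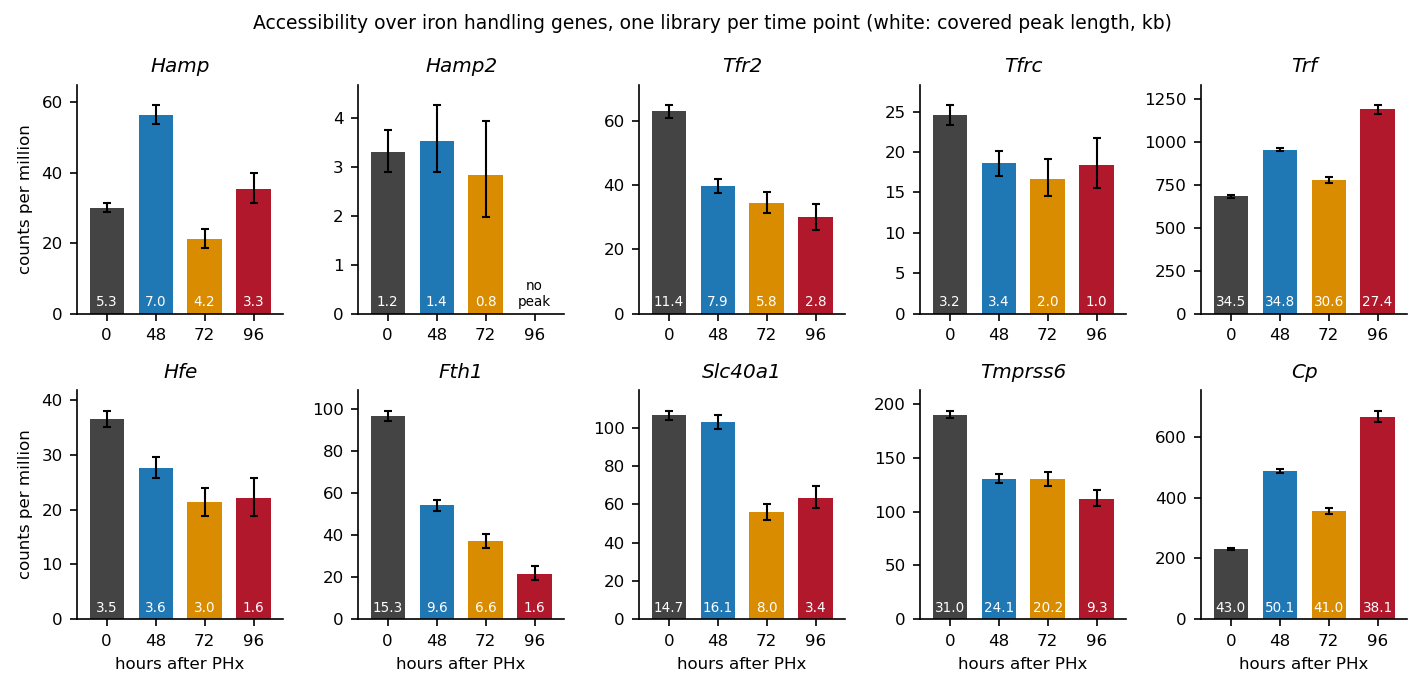
Bars give the CPM over the gene body and 2000 bp upstream for each of the 10 members, 1 library per time point, with exact 95% Poisson intervals for counting error; white numbers are the covered peak length in kb. Trf and Cp were highest at 96 h, Hamp at 48 h, and Tfr2, Tfrc, Hfe, Fth1, Slc40a1 and Tmprss6 at 0 h.

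Tfr2, Hfe and Tmprss6 act on hepcidin. Tfr2 (chr5:137569840-137587481, plus strand) and Hfe (chr13:23702034-23710854, minus strand) belong to the complex that senses iron-loaded transferrin, and Tmprss6 (chr15:78439667-78468634, minus strand) is a membrane protease that damps BMP signalling. Tfr2 held 62.9, 39.7, 34.5 and 29.9 CPM at 0, 48, 72 and 96 h, Hfe 36.6, 27.6, 21.3 and 22.1 CPM, and Tmprss6 190, 131, 131 and 112 CPM. All 3 were highest at 0 h, with no overlap between the counting interval at 0 h and those of the later libraries. The ratios of Tfr2 were -0.66, -0.86 and -1.06 on the log2 scale, the last of which passed 2-fold (-1.28 to -0.88), and its covered length at 96 h was 4.06 times shorter. Its peak at the start reached Actl6b at 0 h, and with peaks over no other gene, a setting that leaves out this peak at 0 h but not at 96 h, the ratio at 96 h was -0.31 and not past 2-fold. Those of Hfe were -0.40, -0.77 and -0.71, and those of Tmprss6 -0.54, -0.54 and -0.76.

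The promoter peaks of these genes had nearly the same length at 0 and 48 h. The Tfr2 promoter, taken as peaks within 1000 bp of the gene start, held 25.7 CPM over 2648 bp at 0 h and 17.3 CPM over 2625 bp at 48 h, a log2 ratio of -0.56 (-0.71 to -0.43). The Hfe promoter lay in a peak of 3537 bp at 0 h and 3604 bp at 48 h, with a log2 ratio of -0.40 (-0.52 to -0.29). The Tmprss6 promoter held 60.6 CPM over 6312 bp at 0 h and 40.7 CPM over 6100 bp at 48 h, a log2 ratio of -0.57 (-0.67 to -0.48). These differences were larger than counting error, and the median of all 12819 promoters compared was -0.20 at 48 h. At 72 and 96 h the promoter peak of Tmprss6 was shorter, 2349 and 879 bp, and its log2 ratios of -1.49 and -1.75 passed 2-fold, beside a median over all promoters of -0.12 and 0.20. The peak at the start was split at these times, and its upstream part lay outside the 1000 bp. Over the whole stretch that the peak covered at 0 and 48 h, the libraries held 60.6, 40.7, 35.9 and 36.6 CPM, less than 2-fold apart. Per kb of the promoter peak the log2 ratio at 96 h was 1.09, so the direction there depends on whether length is taken into account. The Tmprss6 gene holds further peaks. The most distal region, from about 23 to 38 kb past the start at 0 h, ran past the end of the gene over Kctd17. It held 76.5, 46.6, 54.5 and 46.1 CPM at 0, 48, 72 and 96 h, over 14498, 9426, 7981 and 3359 bp. Per kb its main peak held 5.28 CPM at 0 h and 13.7 CPM at 96 h. At 96 h that peak ran from 28961 to 32319 bp past the start of a gene of 28968 bp. It thus lay almost wholly past the end of the gene, though its counts are part of the gene total of 112 CPM. An inner peak of Tfr2, about 10 kb past its start, held 17.8, 12.1, 12.7 and 10.9 CPM. By CPM it was highest at 0 h, like the promoter of Tfr2. Its length was 2181, 1676, 1062 and 856 bp, and per kb it held 8.18, 7.23, 12.0 and 12.7 CPM, highest at 96 h. Per kb the Tfr2 promoter held 9.69 CPM at 0 h and 9.76 CPM at 96 h.

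Trf and Tfrc bring iron into cells. Trf (chr9:103204001-103230444, minus strand) encodes transferrin, the iron carrier of plasma made by hepatocytes, and Tfrc (chr16:32608920-32632794, plus strand) the transferrin receptor through which cells take it up. Trf held 682, 955, 778 and 1189 CPM at 0, 48, 72 and 96 h, and every later library lay above 0 h. Its log2 ratios were 0.49 (0.47 to 0.51), 0.19 (0.16 to 0.22) and 0.80 (0.77 to 0.84). Scaled on regions of near-equal length they were 0.53, 0.00 and 0.11, so the higher level at 72 h was not seen on that scale. At 0 and 48 h all of these counts fell in a single peak of 34458 and 34769 bp that spanned the whole gene, so the 1.40-fold higher count at 48 h was at nearly equal length. A peak of 27260 bp at 72 h and 1 of 26756 bp at 96 h covered nearly all of it. Part of these broad peaks lies over Srprb and Gm20425. Tfrc held 24.6, 18.6, 16.7 and 18.4 CPM. It was highest at 0 h, and the intervals of the 3 later libraries (17.1 to 20.2, 14.5 to 19.1 and 15.5 to 21.8 CPM) overlapped each other. At the promoter of Tfrc the log2 ratio at 48 h was -0.46 (-0.62 to -0.33), over 3202 bp at 0 h and 3013 bp at 48 h.

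Cp (chr3:19957054-20009145, plus strand) encodes ceruloplasmin, the copper ferroxidase that oxidises exported iron for loading onto transferrin. Over Cp the libraries held 230, 488, 356 and 667 CPM. All 3 later libraries were above 0 h, with log2 ratios of 1.08 (1.05 to 1.12), 0.63 (0.58 to 0.68) and 1.53 (1.49 to 1.58). The direction held with scaling on near-equal regions (1.13, 0.44 and 0.85) and per kb of peak (0.86, 0.70 and 1.71). Per kb the median over all genes was -0.21, 0.16 and 1.26, and 72.3% of genes were at least 2-fold higher at 96 h. With that median at 0, the values of Cp were 1.08, 0.53 and 0.45. With counts made binary per nucleus the ratio at 48 h was 0.07, no longer past 2-fold. Merged over the libraries, the open regions of Cp reach Hps3, although the peaks at the 5′ end do not at 0, 72 and 96 h, and counts over both genes cannot be assigned to 1 of them. With peaks over no other gene Cp had no value at 48 h and ratios of 0.08 at 72 h and 0.88 at 96 h, so neither 2-fold call was left. The covered length differed less, 43025, 50103, 41038 and 38072 bp. Over the 3′ stretch of the open domain, from about 10 to 43 kb past the start, a peak of 30319 bp held 137 CPM at 0 h, 1 of 30107 bp held 258 CPM at 72 h and 1 of 27734 bp held 498 CPM at 96 h. At 48 h a single peak of 47005 bp ran from before the gene start to 43 kb past it and held 478 CPM. The promoter count differed with the extent of the peak at the start. That peak held 83.5 CPM over 10169 bp at 0 h, 93.2 CPM over 10007 bp at 72 h and 14.8 CPM over 760 bp at 96 h. The log2 ratios at the promoter were 2.51 at 48 h and -2.46 at 96 h, in opposite directions and both past 2-fold, and the log2 ratios of the peak length were 2.21 and -3.74. At 72 h, with nearly equal length, the promoter ratio was 0.16 (0.07 to 0.25). The 250 bases before the second of the 2 RefSeq starts of Cp, on the plus strand at chr3:19956999-19957248, are shown because they lay in a peak in every library and hold a C/EBP match, in capitals.
Cp: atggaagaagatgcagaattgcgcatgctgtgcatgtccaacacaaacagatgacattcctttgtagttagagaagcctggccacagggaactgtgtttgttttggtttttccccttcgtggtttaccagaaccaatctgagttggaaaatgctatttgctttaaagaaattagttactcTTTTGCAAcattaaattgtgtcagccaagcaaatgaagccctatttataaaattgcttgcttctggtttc

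**Figure D2:**
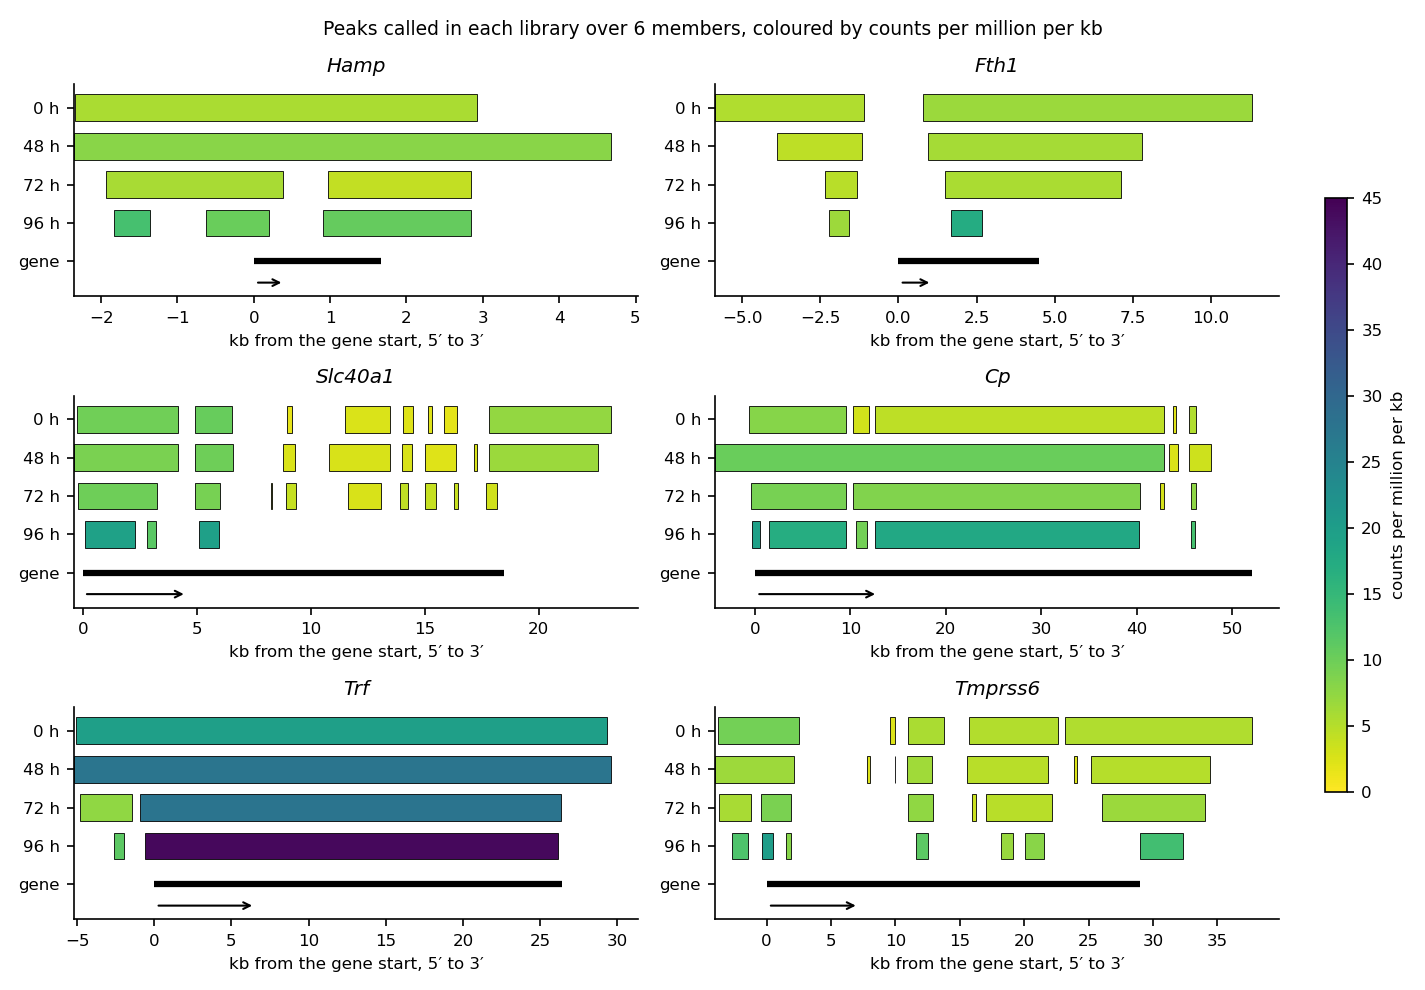
Boxes are the peaks called in each library over 6 members, placed by distance in kb from the gene start in the direction of transcription and coloured by CPM per kb; the black bar is the gene and the arrow its direction. Broad peaks span Trf and most of Cp in every library. The summed peak length of each of the 6 members was shortest at 96 h, where the median log2 length ratio over all genes was -1.10.

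Fth1 (chr19:9980598-9985098, plus strand) encodes the heavy chain of ferritin, the iron store of the cell. It was lower at each later time point: 96.5 CPM at 0 h, 54.1 CPM at 48 h, 37.0 CPM at 72 h and 21.6 CPM at 96 h, with counting intervals that did not overlap. The log2 ratios were -0.83 (-0.91 to -0.76), -1.37 (-1.52 to -1.25) and -2.13 (-2.39 to -1.93), and the covered length went from 15285 bp at 0 h to 9561, 6647 and 1645 bp. Per kb of peak the level was 6.32, 5.66, 5.57 and 13.1 CPM, so at 96 h the 2 measures pointed in opposite directions. At 0 h the main peak ran about 7 kb past the gene, over Best1, and at 96 h it did not reach that gene. With peaks over no other gene, 25.8 CPM were left at 0 h and 21.6 CPM at 96 h, a ratio of -0.25, so the 2-fold call at 96 h was not left, while the ratios at 48 and 72 h were -1.03 and -2.26. In each library 1 peak lay upstream of the gene and 1 over its second RefSeq start. The upstream peak held 25.8 CPM at 0 h and 4.29 CPM at 96 h, and the peak over the second start 70.7 and 17.3 CPM. Fth1 has 2 starts in the RefSeq table about 2 kb apart, and both are shown, on the plus strand, because no library had a peak over the window of the first (chr19:9980350-9980599) and every library had 1 over that of the second (chr19:9982396-9982645).
Fth1 first start: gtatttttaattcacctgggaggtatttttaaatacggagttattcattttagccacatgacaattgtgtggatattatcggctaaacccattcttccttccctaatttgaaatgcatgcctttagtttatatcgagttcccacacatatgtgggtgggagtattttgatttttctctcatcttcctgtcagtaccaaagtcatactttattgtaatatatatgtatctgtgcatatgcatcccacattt
Fth1 second start: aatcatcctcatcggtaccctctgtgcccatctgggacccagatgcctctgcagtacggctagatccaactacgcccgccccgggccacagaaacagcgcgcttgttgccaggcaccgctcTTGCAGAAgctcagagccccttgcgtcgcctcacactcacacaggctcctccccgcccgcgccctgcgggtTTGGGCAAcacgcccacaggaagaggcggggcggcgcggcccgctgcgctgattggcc

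The window of the first start of Fth1 was 36.7% G and C and held none of the 5 motifs, and that of the second was 67.0% G and C, with C/EBP matches that began 129 and 58 bases before the start. The annotated 5′ end of the gene is the first start, so at 72 and 96 h no peak lay within 1000 bp of it. Around any annotated transcript start, the Fth1 promoter held 70.7, 41.7, 32.0 and 17.3 CPM, which was 1.69-, 2.19- and 3.99-fold lower than at 0 h.

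Slc40a1 (chr1:45908068-45926523, minus strand) encodes ferroportin. It held 107, 103, 56.0 and 63.5 CPM at 0, 48, 72 and 96 h, so 0 and 48 h were close (log2 ratio -0.05, -0.11 to 0.01) and 72 and 96 h were lower, with ratios of -0.93 (-1.05 to -0.82) and -0.74 (-0.89 to -0.61). Its promoter differed less and held 42.9, 41.3, 34.4 and 41.8 CPM, over 4416, 4528, 3473 and 2168 bp. An element about 5 kb past the start held 17.0, 16.5, 10.3 and 17.1 CPM, over 1619, 1668, 1111 and 870 bp. Per kb the promoter held 9.72 CPM at 0 h and 19.3 CPM at 96 h, and the element 10.5 and 19.6 CPM. The median log2 ratio per kb over all promoters was 1.03 at 96 h. The region at and past the 3′ end of the gene held 38.9 CPM at 0 h and 32.5 CPM at 48 h over about 5 kb, 1.58 CPM over 495 bp at 72 h, and no peak was called there at 96 h. Most of the difference in the gene total at 72 and 96 h thus lay in this region, where little or no peak was called.

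Of the 9 members that reached a mean of 5 CPM, 1 (Cp, higher) was at least 2-fold from 0 h at 48 h, 1 (Fth1, lower) at 72 h and 3 (Cp, higher; Tfr2 and Fth1, lower) at 96 h. Over all genes compared, at least 2-fold higher were 5.58% at 48 h, 10.5% at 72 h and 5.62% at 96 h, and at least 2-fold lower 1.87%, 5.99% and 8.24%. A single member of 9 is the smallest count above 0, so nothing is read from the counts at 48 and 72 h. With scaling on near-equal regions 6 members were past 2-fold lower at 96 h and none higher, beside 26.4% and 0.839% of all genes, and per kb of peak 5 were higher and none lower, beside 72.3% and 0%. Per kb all 9 members were above 0 h at 96 h (0.43 for Hfe to 1.71 for Cp, with Slc40a1 at 1.35 and Tmprss6 at 0.98), beside a median of 1.26 over all genes. The median log2 ratio of the 9 was -0.39, -0.54 and -0.71, beside -0.04, -0.02 and 0.09 over all genes. At the promoter 1 of 9 members at 48 h (Cp, higher), 1 of 8 at 72 h (Tmprss6, lower) and 2 of 8 at 96 h (Cp and Tmprss6, lower) passed 2-fold. Over all promoters 5.01%, 7.40% and 6.85% were at least 2-fold higher and 2.51%, 8.01% and 8.55% lower. The log2 ratio of the count went with that of the covered length across genes (Pearson's r of 0.877, 0.908 and 0.841 over 15454, 15447 and 15311 genes, which are not independent and share the libraries). Among the members at 96 h, Fth1 had both the lowest count ratio and the lowest length ratio (-3.22, with a percentile of 1.63 among all genes by count), and Cp the highest of each (-0.18, with a percentile of 98.7).

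**Figure D3:**
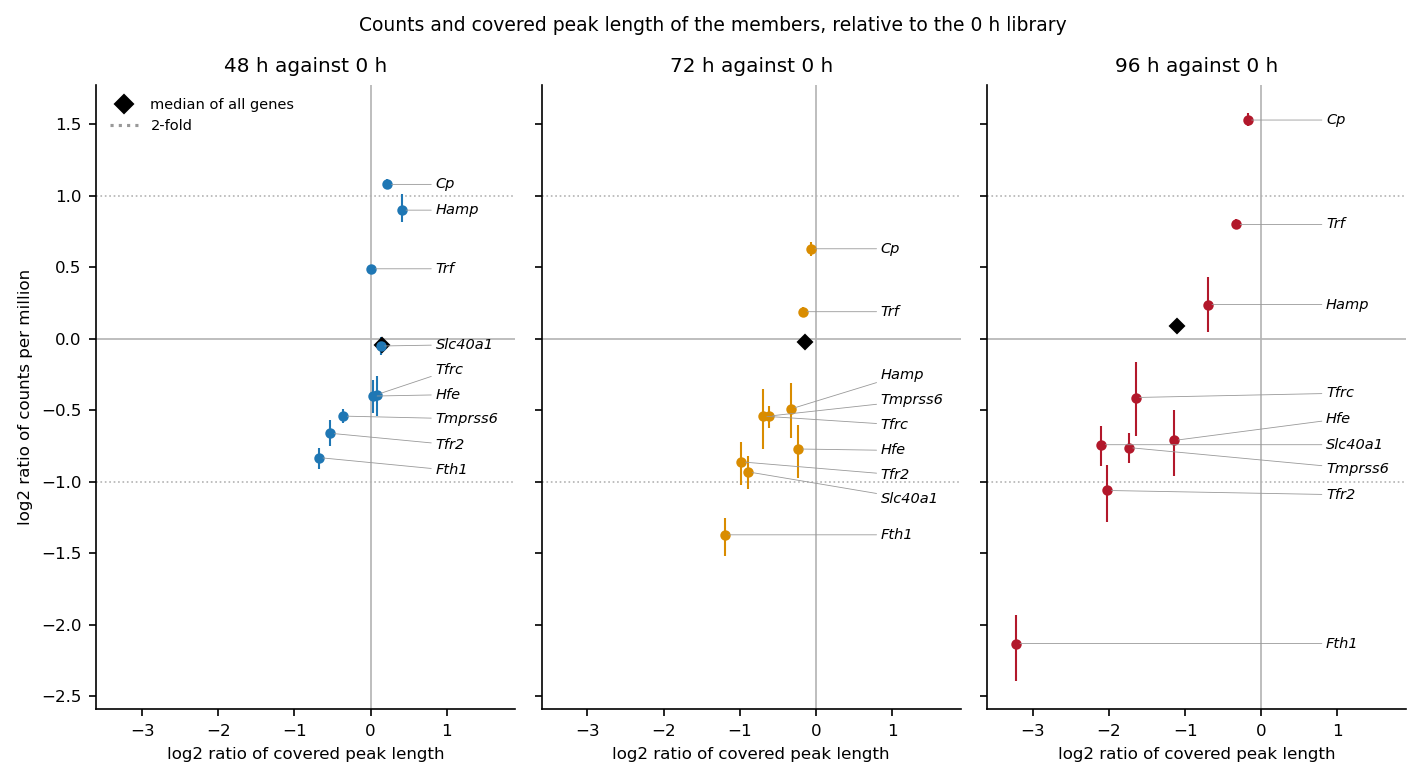
Each point is 1 of 9 members, with the log2 ratio to 0 h of its covered peak length on the x axis and of its CPM on the y axis (bars: 95% counting intervals); the black diamond is the median of all genes, and dotted lines mark 2-fold. Trf and Cp lie above 0 in all 3 panels, and Fth1 is lowest in count in each.

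Per kb of covered peak, the order of the members at 0 h was Trf (19.8 CPM per kb), Hfe (10.3), Tfrc (7.67), Slc40a1 (7.24), Fth1 (6.32), Tmprss6 (6.14), Hamp (5.67), Tfr2 (5.53), Cp (5.35) and Hamp2 (2.74). The intervals of the neighbours Tfrc and Slc40a1, Fth1 and Tmprss6, Hamp and Tfr2, and Tfr2 and Cp overlapped. At 96 h Trf was again first, at 43.4 CPM per kb, followed by Slc40a1 (18.4), Tfrc (18.1) and Cp (17.5), whose intervals overlapped. Tfr2 was last (10.7) of the 9 with a peak, but its interval (9.32 to 12.2) overlapped those of Hamp, Tmprss6, Fth1 and Hfe. Cp was thus above Hamp2 alone at 0 h and above 5 of the other members at 96 h.

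A list of 62 other genes of iron and heme handling was set beside the members, and 58 of them reached 5 CPM. At least 2-fold higher than at 0 h were 4, 3 and 4 of these at 48, 72 and 96 h, and at least 2-fold lower 1, 6 and 3. Over all genes the shares were 5.58%, 10.5% and 5.62% higher and 1.87%, 5.99% and 8.24% lower, so nothing is read from the counts of the list. Up to 4 genes past 2-fold over both gene and promoter in the same direction are named for each time. Hpx, which encodes the heme scavenger hemopexin, held 169, 594, 507 and 865 CPM, log2 ratios of 1.81, 1.59 and 2.36, over 14898, 18276, 14845 and 12946 bp. At 48 h it was joined by Hmox1, the heme-degrading oxygenase (1.36), Alas1, the first enzyme of heme synthesis (1.21), and Steap4, a metalloreductase (1.16). Their covered length was also greater at 48 h: Hmox1 held 19.3 CPM over 1751 bp at 0 h and 50.4 CPM over 11709 bp at 48 h, fewer per kb, Steap4 37.4 CPM over 7625 bp and 83.9 CPM over 16892 bp, nearly equal per kb, and Alas1 127 CPM over 19865 bp and 293 CPM over 24452 bp, more per kb. At 72 h Hpx was joined by Bmp2, a BMP ligand (1.36), and, in the lower direction, by Hfe2, the BMP co-receptor hemojuvelin (-1.41), and Pcbp1, an iron chaperone (-1.05). Atoh8 (-1.02) also met the rule at 72 h, as the last of 5 genes, past the limit of 4. Bmp2 held 10.8 CPM over 2432 bp at 0 h and 28.5 CPM over 4282 bp at 72 h, with 2.99 CPM at its promoter at 0 h. Hfe2 held 82.4 CPM over 9579 bp and 30.7 CPM over 4340 bp, and Pcbp1 62.9 CPM over 7318 bp and 30.1 CPM over 4295 bp. At 96 h Hpx was joined by the heme exporter Flvcr1 (1.23) and the metalloreductase Steap2 (1.02). Flvcr1 was covered over 2015 bp at 0 h and 1804 bp at 96 h, and Steap2 over 2035 and 1343 bp. The 4 genes of iron storage and chaperones that could be compared (Ftl1, Ncoa4, Pcbp1 and Pcbp2) had median log2 ratios of -0.51, -0.80 and -0.46, the lowest of the groups listed. Those of the 9 heme genes compared were 0.28, 0.40 and 0.55, and those of the whole list 0.00, -0.01 and 0.04. The covered length of the 4 storage and chaperone genes was shortest at 96 h, where each held more counts per kb than at 0 h. The median log2 ratio per kb over all genes was 1.26 at 96 h. The light chain of ferritin, Ftl1, held 248, 233, 169 and 202 CPM over 11860, 9613, 7557 and 6494 bp, so that it was below 0 h by CPM and above it per kb at each later time. Over the gene, none of the 21 genes of hepcidin regulation on the list passed 2-fold at 48 or 96 h. There 1 was higher and 2 were lower at 72 h, beside the same shares of all genes. At the promoter, of 20, 3 were higher and 1 lower at 48 h, 2 and 2 at 72 h, and 1 and 1 at 96 h. Over all promoters 5.01%, 7.40% and 6.85% were higher and 2.51%, 8.01% and 8.55% lower.

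The protein-coding gene of at least 20 CPM with the most similar set of 3 ratios was found for each member by Euclidean distance, among 11460 or more candidates that shared no peak with it. Tfr2 was nearest to Mast3 (distance 0.0129), Tmprss6 to Anp32a (0.0195), Tfrc to Msh5 (0.0278), Hfe to Epn2 (0.0312) and Slc40a1 to Serpina11 (0.0607). Trf was nearest to Tmx2 (0.0896), Fth1 to Slc25a10 (0.109), Hamp to Ngly1 (0.151) and Cp to the P450 gene Cyp3a11 (0.413). The pattern of Cp was thus the least closely matched, and with 3 ratios per gene a small distance is a description of these libraries.

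The members were next compared between classes of nuclei within each library, where all classes share the same peaks and peak length does not differ. Nuclei were clustered on regions with a peak in every library, so differences between clusters are descriptions with no test. The hepatocyte-like nuclei counted 2458 at 0 h, 3638 at 48 h, 3930 at 72 h and 3130 at 96 h, and fell mostly into clusters of their own library. A shallow cluster with hepatocyte markers (4344 CPM at 0 h) was left unnamed and out of this class, and it took up 1223 of the 0 h nuclei (30.8%) but 39, 37 and 13 nuclei of the later libraries. A small cluster of 90, 76, 88 and 25 nuclei was named Kupffer and other myeloid-like: all 5 of its detected markers were at least 2-fold above the other nuclei, and Clec4f was among its 10 leading genes, as were the endothelial gene Cdh5 and the heat shock gene Hspa1a. Its summed myeloid markers were 438 CPM at 0 h against 170 CPM in hepatocyte-like nuclei, and its hepatocyte markers 943 against 4107 CPM, while Clec4f, Cd5l, Adgre1, Vsig4, Marco and Lyz2 had no peak at 0 h. It was shallower, with a median of 7511 counts per nucleus at 0 h against 42311. A further cluster of 206, 139, 201 and 56 nuclei stayed unnamed, since its relative depth was 0.221 and no marker led it, though 8 of the 10 endothelial markers stood 2-fold or more above the rest there.

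Slc40a1 and Fth1 were the 2 members at least 2-fold higher in the Kupffer and other myeloid-like nuclei than in hepatocyte-like nuclei of the same libraries. Slc40a1 held 403 against 96.2 CPM over the 4 libraries, 4.17-fold higher, and 3.48 (2.95 to 4.09), 5.08 (4.18 to 6.13), 6.24 (4.27 to 8.83) and 4.18 (1.35 to 9.83) fold higher at 0, 48, 72 and 96 h. Fth1 held 335 against 72.9 CPM, 4.58-fold higher, and 3.32 (2.77 to 3.94), 5.49 (4.21 to 7.05), 15.9 (11.6 to 21.2) and 15.2 (5.50 to 33.9) fold higher in the 4 libraries. Its main peak held 69.9, 40.2, 27.6 and 16.8 CPM in hepatocyte-like nuclei and 229, 252, 495 and 212 CPM in the Kupffer and other myeloid-like nuclei. The fold at 72 h thus went with both a higher level in the latter (367 to 654 CPM, against 190 to 327 CPM at 48 h) and a lower level in the former. The difference between libraries was not tested. With each nucleus thinned to 2000 counts, Fth1 had a count in 43.9% (33.0 to 55.3) of 82 Kupffer and other myeloid-like nuclei at 0 h and in 17.6% (16.1 to 19.1) of 2455 hepatocyte-like nuclei, and Slc40a1 in 37.8% (27.3 to 49.2) and 17.8% (16.3 to 19.4), with exact binomial intervals. Without thinning the shares were 63.3% and 79.3% for Fth1 and 63.3% and 83.4% for Slc40a1, at the unequal depths given above, and 8 and 3 shallower nuclei were left out by the thinning. Members at least 2-fold lower in the same nuclei were Hamp (3.86-fold), Cp (3.27-fold), Trf (2.64-fold) and Tfr2 (2.02-fold). Tmprss6 (81.9 against 164 CPM) was just short of that, and Tfrc and Hfe were within 2-fold too. Trf and Cp were lower in each of the 4 libraries with intervals that lay below 1. For Tfr2, Hamp and Tmprss6 the direction rested on fewer libraries. The interval of Tfr2 lay below 1 at 0 h alone (0.179 to 0.686) and held 1 in the later libraries (0.248 to 1.48 at 48 h and wider after that). That of Hamp held 1 at 72 h (0 to 1.75) and 96 h (0.0377 to 8.41), and that of Tmprss6 at 48 h (0.419 to 1.06) and 96 h (0.0119 to 2.64). Over all genes 14.7% were at least 2-fold higher and 10.6% at least 2-fold lower in these nuclei. In the unnamed cluster no member was 2-fold higher, and Trf (5.69-fold), Tfr2 (2.55-fold), Cp (2.50-fold) and Hamp (2.21-fold) were lower, beside 15.2% of all genes higher and 11.0% lower. The values of single libraries differed: at 72 h the ratio was 1.79 for Hamp (0.711 to 3.73) and 0.860 for Tfr2 (0.297 to 1.95).

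**Figure D4:**
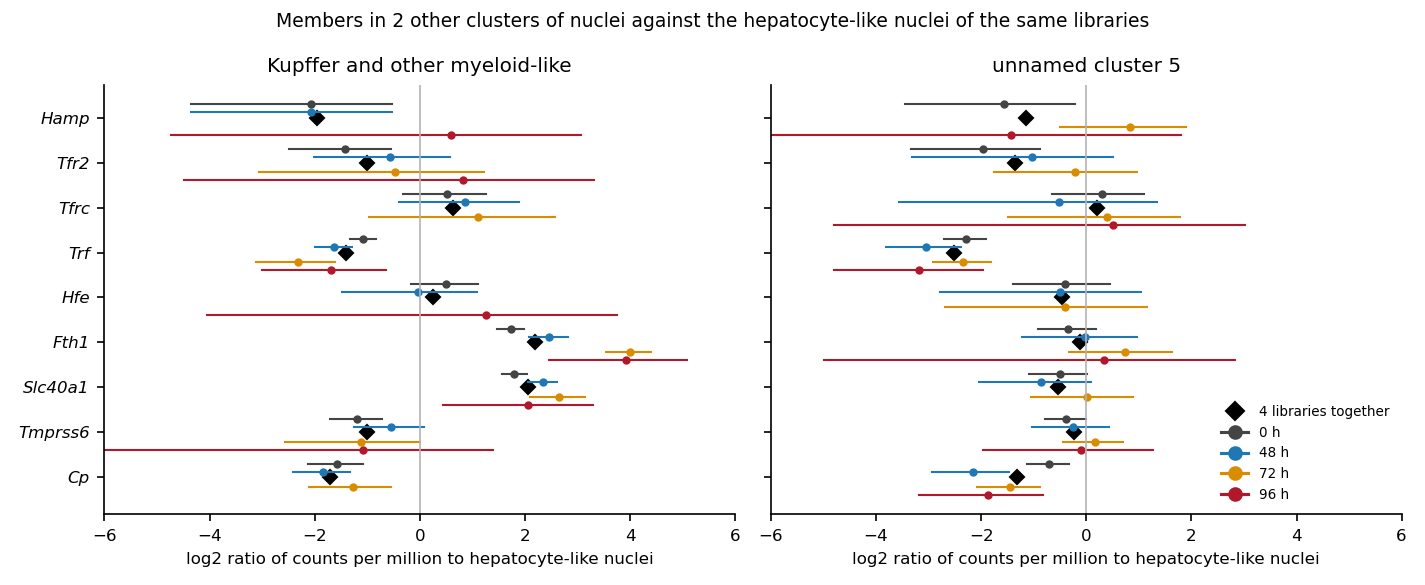
Log2 ratio of CPM in 2 clusters of nuclei to the hepatocyte-like nuclei of the same libraries for the 9 members of at least 5 CPM; coloured points and lines are single libraries with 95% counting intervals (libraries with no count in the cluster are left out), and black diamonds the 4 libraries together. Fth1 and Slc40a1 lie right of 0 in every library on the left, and Trf left of 0 in every library of both panels.

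Within Slc40a1 the difference between the classes was uneven. The promoter peak held 94.9 against 42.5 CPM at 0 h, 2.23-fold (1.59 to 3.06), and the element about 5 kb past the start 33.6 against 17.3 CPM, 1.95-fold (1.06 to 3.28). A stretch about 12 kb past the start held 67.3 against 4.83 CPM at 0 h, 13.9-fold (9.09 to 20.5), and 96.8 against 6.48 CPM at 48 h, 14.9-fold (9.10 to 23.4). At 72 h it was 5.36-fold higher, with a wide interval (0.630 to 20.5). The promoter was 3.41-fold (1.72 to 6.10) and the 5 kb element 5.43-fold (1.85 to 12.6) higher there, so the stretch did not stand apart at 72 h. At 96 h the stretch had no peak. The peak from 18 to 23 kb past the start was 3.44-fold higher at 0 h (2.58 to 4.49), an interval that overlaps that of the promoter, and 6.26-fold (4.51 to 8.48) at 48 h. The smaller peaks held few counts in the Kupffer and other myeloid-like nuclei. At 0 h the peak of 439 bp at 14 kb held 21.6 against 0.809 CPM, 26.7-fold (11.5 to 54.9), and those at 9, 15 and 16 kb were 23.6-fold (5.27 to 73.4), 7.24-fold (0.175 to 45.1) and 7.18-fold (1.44 to 22.0) higher. At 48 h the peak of 1351 bp at 15 kb held 60.8 against 2.63 CPM, 23.1-fold (11.9 to 41.3), and that at 9 kb was 4.97-fold higher with an interval that held 1 (0.348 to 22.6). At 0 and 48 h the intervals of the folds at 12 and 14 kb did not overlap that of the promoter. The middle 300 bases of the 1441 bp that the peaks of 3 libraries share in the stretch at 12 kb are shown because this element differed so much between the classes. They lie in an intron of Slc40a1 at chr1:45914031-45914330 (GRCm38.p6) and are printed on the minus strand, that of the gene, with nothing marked.
Slc40a1 intron: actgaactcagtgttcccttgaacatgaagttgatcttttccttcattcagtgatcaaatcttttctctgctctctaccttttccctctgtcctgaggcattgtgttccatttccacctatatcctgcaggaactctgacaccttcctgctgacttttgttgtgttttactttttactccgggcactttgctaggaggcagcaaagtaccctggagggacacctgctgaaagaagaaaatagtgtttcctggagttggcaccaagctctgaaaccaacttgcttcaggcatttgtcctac

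**Figure D5:**
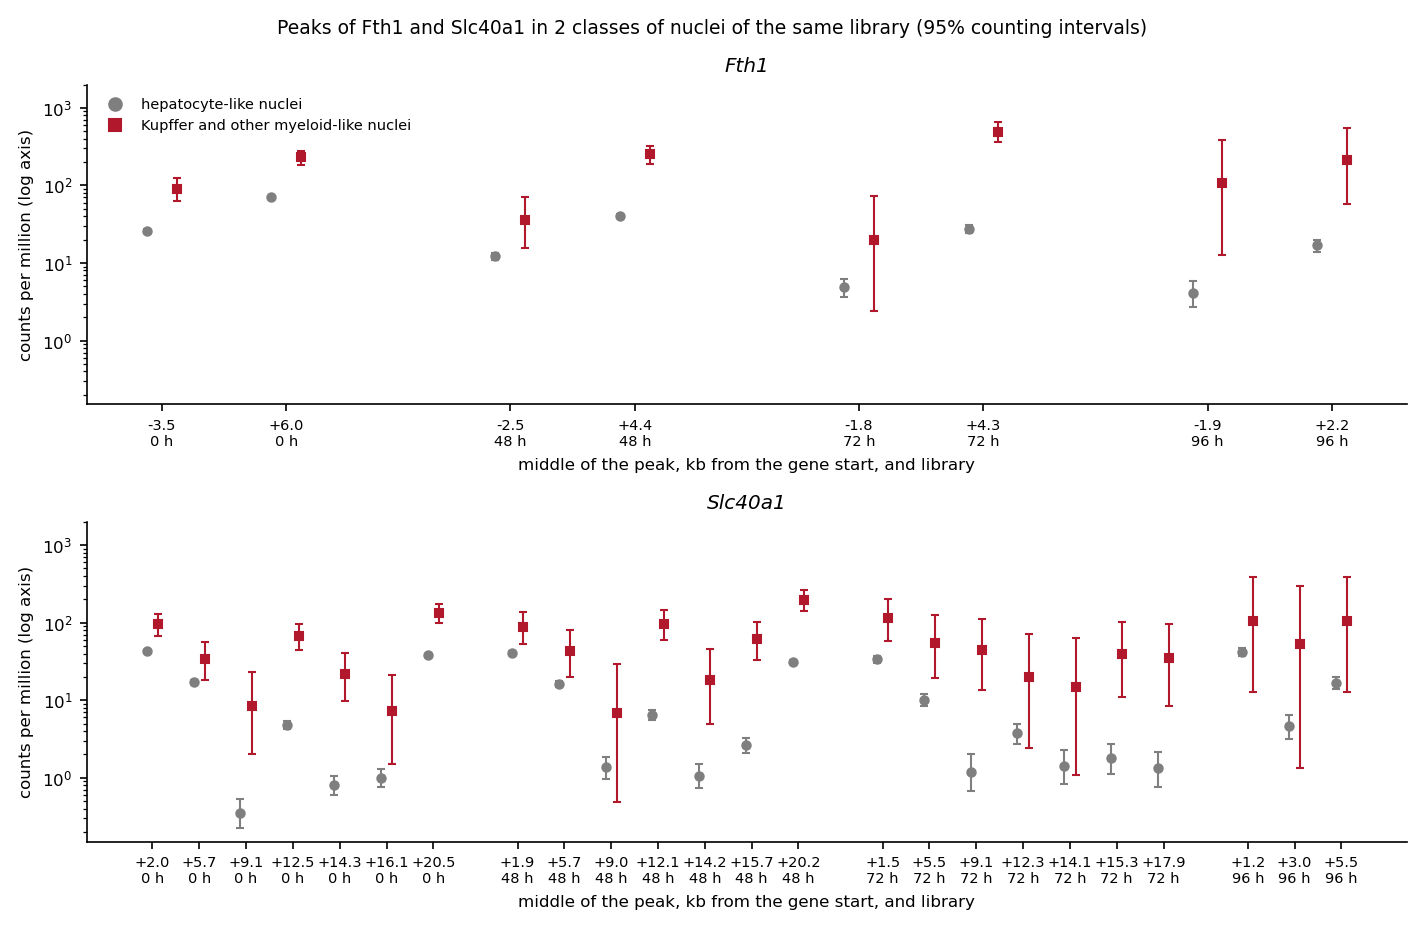
CPM (log axis) of peaks of Fth1 and Slc40a1 in hepatocyte-like nuclei (grey circles) and in Kupffer and other myeloid-like nuclei (red squares) of the same library, with 95% counting intervals. Peaks of over 200 bp that reached 5 CPM in either class are drawn. Those of Slc40a1 at 9, 14 and 16 kb at 0 h reached it in the Kupffer and other myeloid-like nuclei alone. Labels give the middle of the peak in kb from the gene start and the library. At 0 h the classes differ 1.95- to 2.23-fold at the promoter and the 5 kb element of Slc40a1 and 13.9- to 26.7-fold at its peaks 9 to 14 kb past the start.

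Hepatocytes differ along the lobule from portal to central vein. Hepatocyte-like nuclei were ranked by the pericentral share of their counts over pericentral and periportal genes, and the top and bottom of 3 equal groups were compared. Hepatocyte-like nuclei with too few counts over these genes were left out, 3 of 2458 at 0 h, 552 of 3638 at 48 h, 1806 of 3930 at 72 h and 1766 of 3130 at 96 h, so the later comparisons rest on the nuclei with more counts there. Each group held 818, 1028, 708 and 454 nuclei at 0, 48, 72 and 96 h, and the pericentral group was deeper in each library (a median of 50920 against 35430 counts at 0 h). The part of depth in these differences was not tested. A group is a range of a score and not a cell type, and 508 of 2455 scored nuclei lay within 0.02 of a limit at 0 h. Cp held 219 CPM in the pericentral and 243 CPM in the periportal group at 0 h, 442 and 556 CPM at 48 h, 317 and 449 CPM at 72 h, and 650 and 796 CPM at 96 h. It was lower in the pericentral group of all 4 libraries, by log2 differences of -0.15, -0.33, -0.50 and -0.29 with counting intervals below 0 and percentiles of 16.2, 4.30, 3.42 and 13.4 among all genes. Slc40a1 was lower there at 0, 48 and 72 h (-0.22, -0.27 and -0.55) and close at 96 h (-0.04, -0.44 to 0.36). Hamp held 31.0 CPM in the pericentral and 22.7 CPM in the periportal group at 0 h (0.44, 0.27 to 0.63), a percentile of 97.5 among all genes. Its differences of -0.02, -0.31 and -0.25 in the later libraries had intervals that held 0, and whether its difference changed between libraries was not tested. Trf was slightly higher in the pericentral group at 0 and 72 h (0.12 and 0.13), and Hfe at 0 h (0.20, 0.05 to 0.35). The differences of Fth1 were 0.09 (0.00 to 0.19), 0.09 (-0.09 to 0.28), 0.44 (-0.00 to 0.91) and 0.38 (-0.38 to 1.20), above 0 in each library with intervals that reached or held 0, and percentiles of 63.8, 62.3, 91.7 and 86.5 among all genes. For Tfr2, Tfrc and Tmprss6 the interval of the difference held 0 in each library.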

How the data were processed

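The deposited files held, for each library, counts per nucleus barcode in called peaks. Per the labels, the file headers and the study's methods, the authors obtained them with Cell Ranger ATAC (1.1.0 in the file headers) on mm10 from libraries of the first 10x Chromium scATAC chemistry, and peaks were called in each library on its own. Most fragments count at both ends (87.3 to 88.6% of values were even). Here barcodes with at least 1000 counts were summed per library, peaks were assigned to genes of GENCODE vM21 extended 2000 bp upstream, or to promoters (1000 bp on either side of the gene start), and scaled to CPM. A log2 ratio used a pseudocount of 0.5 CPM, a peak in both libraries and a mean over the 4 libraries of at least 5 CPM. No count model or test was run, since each time point had 1 library. Nuclei were clustered on 62837 autosomal regions shared by all libraries (TF-IDF, 30 SVD components, 30 neighbours, Leiden at 0.5; scikit-learn 1.9.0, leidenalg 0.10.2), and no doublet caller was run. The calculation of ratios was checked on simulated counts with known folds. Members of the list past 2-fold over gene and promoter, at most 4 at each time, and the nearest gene by ratios were named by rule. The members and lists were chosen with earlier results of these data known.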

Additional observations from a re-analysis of the deposited data

How the results depend on the processing

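Every ratio rests on 1 library a time, and no alternative changes that. The number of members past 2-fold over the gene was 1 of 9 at 48 h, 1 at 72 h and 3 at 96 h, and at the promoter 1 of 9, 1 of 8 and 2 of 8. Over the gene at 48 h it was 0 with 10000 bp upstream, with counts made binary per nucleus and per kb of peak. At 72 h it was 2 with 10000 bp upstream, 2 with binary counts, 0 per kb, 0 per kb with the median of all genes at 0, and 3 with scaling on near-equal regions. At 96 h it was 0 of 7 with peaks over no other gene, 5 per kb, 0 per kb with the median at 0, 6 with near-equal scaling, 4 with binary counts, 4 with 10000 bp upstream, and 2 with a pseudocount of 5 CPM, where Tfr2 was -0.96. At the promoter at 48 h it was 2 with the median of all genes at 0, 0 per kb and 0 per kb with the median at 0. At 72 h it was 2 with the window from 250 bp before to 50 bp after the start, 2 with binary counts, 0 per kb and 0 per kb with the median at 0. At 72 h around any transcript start it was 1 of 9, without Tmprss6 (-0.85). At 96 h it was 4 per kb, 1 per kb with the median at 0, 5 with near-equal scaling, 3 with binary counts, 3 of 7 with the window from 250 bp before to 50 bp after, and 3 of 9 around any transcript start. Over the gene, ratios past 2-fold at 96 h that turned direction were Tfr2 (0.96 per kb) and Fth1 (1.08 per kb). With the median at 0 these 2 kept their direction (-0.30 and -0.17). At the promoter Tmprss6 (1.09 per kb, 0.06 with the median at 0) and Cp (1.28 per kb, 0.26 with the median at 0) turned. Cp also turned around any transcript start (1.18), which takes in a further peak. Counting ratios short of 2-fold too, 18 of 27 over the gene and 16 of 25 at the promoter kept their sign per kb, and Tfrc, Hfe, Slc40a1 and Tmprss6 also turned over the gene at 96 h. The part of peak length follows from the construction of the per-kb values, and other causes were not tested. Near-equal scaling put the median of all genes at -0.21 at 72 h and -0.59 at 96 h, and over the near-equal regions alone no member had a value. Of single members, Cp at 48 h was 0.07 with binary counts, in which a 47005-bp peak counts once per nucleus, and Hamp with 10000 bp upstream was 0.17, -1.05 and -2.26. Without peaks over other genes, Cp was 0.08 at 72 h and 0.88 at 96 h, Tfr2 -0.31 at 96 h and Fth1 -1.03, -2.26 and -0.25, since this setting leaves out different peaks in different libraries. Without barcodes found in more than 1 library (877, 237, 125 and 123 nuclei), the numbers were as given except 2 over the gene at 96 h, where Tfr2 was -0.99. Near-equal scaling, the centred per-kb values and the barcodes of 1 library were chosen after seeing the data. No paired analysis was possible because each time point had 1 library. At 96 h, with the fewest counts, the Kupffer and other myeloid-like class held 25 nuclei, and differences there were within wide intervals.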
